A study of Mus musculus with 2 samples.

Results

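The GATA factors are a family of 6 transcription factors in the mouse, Gata1 to Gata6, and Zfpm1 and Zfpm2 encode their cofactors, known as Fog1 and Fog2. All 8 genes were read on 2 Affymetrix arrays of cells from the otocyst, the epithelial vesicle that forms the inner ear. A probe set was taken where the platform's table named exactly 1 of the 8 genes for it, which gave 15 of 45101 probe sets, and 8 of 18194 named genes. Both arrays hold cells of mouse embryos at E10.5, in mid-gestation, heterozygous for the transgene Tg(ETAR-EGFP)14Imeg. Otocysts were dissociated with 0.25% trypsin and sorted by EGFP fluorescence. The EGFP-positive array stands for the mainly ventral and dorsomedial cells in which the labels place EGFP, and the EGFP-negative array for the cells without it, among them the dorsolateral otocyst. EGFP follows the transgene and not a cell type, 1 numbered transgenic line was used, and the sources used here do not give the number of embryos pooled. No group without the transgene was compared.

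GATA factors bind short DNA words around the letters GATA through a pair of zinc fingers. The N-terminal finger also binds the Fog proteins, which bring in the CtBP and NuRD corepressors. Gata1 and Gata2 are best known from blood, where Gata2 maintains progenitors and Gata1 drives red cell and platelet precursors. Gata4, Gata5 and Gata6 are known from heart and endoderm. Gata3 acts in T cells, in kidney and in the ear, and loss of 1 copy of the human gene causes deafness with parathyroid and kidney disease. Gata2 is also required for the shape of the vestibular labyrinth.

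The values are MAS5 signals, which summarise the probes of a probe set on a linear scale, and both arrays had been scaled to a common trimmed mean. A signal was treated as unmeasured at or below a floor, 12.3 on the EGFP-positive and 12.4 on the EGFP-negative array. The floor is the higher of the array's 40th percentile and the highest of 27 bacterial control probe sets. Ratios are EGFP-positive over EGFP-negative on the log2 scale, each signal first raised to its floor, so where only 1 signal clears its floor the ratio is a bound, written "at least". There was 1 array per population, so no p-value can be given and no spread between samples is known. As a partial technical error, log2 ratios from different probe sets for the same gene had an SD of 0.40 at mean signals below 50, 0.32 at 50 to 200 and 0.24 at higher signals. That SD leaves out embryos, sorts and hybridisations.

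Of the 8 genes, each by its brightest probe set, 1 passed 2-fold towards EGFP-positive cells (Gata3), 1 passed 2-fold towards EGFP-negative cells (Gata1), and 3 lay within 2-fold (Gata2, Zfpm1 and Zfpm2). Gata4 gave only a bound short of 2-fold, which sets no upper limit. Gata5 and Gata6 were at or below the floor in both populations. Among all 13098 genes above the floor in at least 1 population, 2.96% passed 2-fold towards the EGFP-positive side and 7.00% towards the EGFP-negative side, or 388 and 917 genes. In either direction 9.96% passed. The split changed with the scaling: quantile normalization gave 503 and 750 genes, hybridisation controls as the centre gave 225 and 1306, and general otic epithelium genes as the centre gave 20 and 10790. The median log2 ratio was -0.19 over the 6 members above the floor and 0.01 over all genes. Levels of different probe sets are not compared with each other, since each binds with its own strength. In sorted pools, fewer cells of a type and less RNA per cell cannot be told apart.

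**Figure D1:**
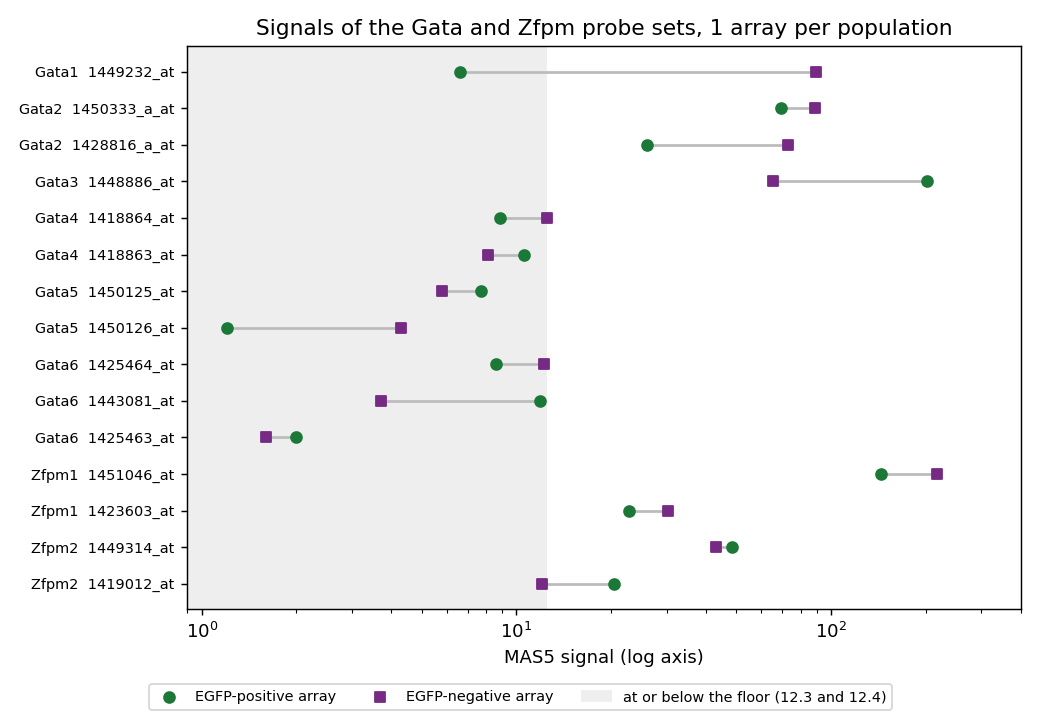
MAS5 signals (log axis) of the 15 probe sets of the Gata and Zfpm genes on the EGFP-positive array (circles) and the EGFP-negative array (squares), with grey marking signals at or below the floor. Gata3 lies higher on the EGFP-positive array (201.7 against 65.4), Gata1 is above the floor only on the EGFP-negative array (89.3), and the probe sets of Gata5 and Gata6 lie in the grey zone.

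Gata3 was the member past 2-fold towards EGFP-positive cells. Its single probe set read 201.7 on the EGFP-positive and 65.4 on the EGFP-negative array, both above the floor, so Gata3 RNA was measured in each population. The ratio was 3.08-fold, a log2 difference of 1.62, against a between-probe-set SD of 0.32 at this signal. Only 98 of the 13098 genes, 0.748%, had a higher ratio. With a single probe set, the Gata3 ratio could not be checked against another part of its transcript.

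The ratio of Gata3 lay among those of otic genes. The general otic epithelium list, with the adhesion and keratin genes of this epithelium and otic transcription factors, had 11 of 14 members past 2-fold towards EGFP-positive cells, none past it the other way and a median of 1.33. Gata3 stood 0.29 above that median, less than the between-probe-set SD of 0.32, with 3 list members above it and 11 below. The ratios of this list ran from -0.58 to 1.77. The lowest was that of Oc90, higher on the EGFP-negative array (939.8 in EGFP-positive against 1405.7 in EGFP-negative cells). Sox9 (0.48) and Tbx1 (0.56) were also within 2-fold, and all 3 were named after their values were seen. The ventral and prosensory list, genes that pattern the floor of the otocyst and the future sensory patches, had 11 of 12 members past 2-fold towards EGFP-positive cells and a median of 1.76, and Gata3 stood -0.14 from it. With all ratios centred on the general otic epithelium list, Gata3 was at 0.29 and no longer past 2-fold.

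Named members of those lists were read in the same way. The ventral homeobox genes Otx2 and Otx1 had 225.5 and 162.9 in EGFP-positive cells against 3.2 and 0.6, ratios of at least 18.2-fold and 13.1-fold. Emx2, another homeobox gene, had 100.5 against 12.7, the latter just above the floor. Among the epithelial genes the largest ratios were those of Fbxo2 (197.8 against 57.9), Cldn6, a tight junction claudin (1333.5 against 401.2), and Lmx1a, a LIM homeobox gene (373.6 against 113.7). Fgf10, a growth factor gene known to need Gata3 in the ear and singled out here after its values were seen, had 39.8 against 15.1, 2.64-fold higher. Of the fixed lists, the 4 genes above the floor in both populations with ratios closest to that of Gata3 were Epcam (1.58), Krt19 (1.67), Lmx1a (1.72) and Cldn7 (1.53). Epcam encodes an epithelial adhesion molecule, and its other probe set was at 0.50, while Krt19 encodes a keratin. Closeness here is the difference of a single log2 ratio between 2 arrays, and 388 genes passed 2-fold in this direction.

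The bases before the RefSeq start of Gata3 are shown because this gene and Gata1 lay on opposite sides of the comparison and GATA factors are known to act on each other's genes. The window covers the 250 bases before the start, on the minus strand at chr2:9878601-9878850 of GRCm38.p6, and is given 5′ to 3′. Capitals would mark a GATA word, AGATAA or AGATAG or TGATAA or TGATAG, on either strand, and there is none in it.
Gata3: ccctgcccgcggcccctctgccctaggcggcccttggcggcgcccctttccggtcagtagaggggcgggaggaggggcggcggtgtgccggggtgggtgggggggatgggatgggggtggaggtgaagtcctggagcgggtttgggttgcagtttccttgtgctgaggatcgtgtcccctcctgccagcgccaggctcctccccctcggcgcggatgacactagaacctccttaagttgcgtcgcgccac

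With each gene read by its brightest probe set, Gata1 was the member past 2-fold towards EGFP-negative cells. It has a single probe set, so its ratio could not be checked against another part of its transcript. Its probe set read 6.6 in EGFP-positive cells, below the floor, and 89.3 in EGFP-negative cells. The signal was at least 7.26-fold higher on the EGFP-negative array, a log2 bound of -2.86. Only 119 genes, 0.909%, had a lower ratio, with bounds ranked at their bound, so this rank is not a measured position. A 60th percentile floor gave a bound of -1.42, and with no floor and 16 added to each signal the ratio was -2.22, both still past 2-fold.

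Genes of the red cell programme, in which Gata1 is the principal regulator, were higher in the same population. Of 15 measured genes on the list of erythroid genes that Gata1 acts on, 14 were above the floor in at least 1 population, 12 passed 2-fold towards EGFP-negative cells and none towards EGFP-positive cells. The list median was -3.80. Slc4a1, the red cell anion exchanger, had 12.3 in EGFP-positive against 1262 in EGFP-negative cells, at least 103-fold higher in the latter, and the least different of its 3 probe sets was at -2.22. Hemgn, a regulator of erythroid differentiation, had 5.5 against 779.5, and Alas2, the first enzyme of heme synthesis in red cells, had 5.9 against 576.5. The receptor gene Epor had 19.6 against 67.2.

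Embryonic globin RNA was read in both populations. Hbb-y had 2121.4 on the EGFP-positive and 6191.1 on the EGFP-negative array, Hbb-bh1 had 500.5 against 7046.6, and Hba-x had 338.5 against 4955.8. The 3 probe sets of Hbb-y ran from -3.30 to -1.55, the values given being those of the least different. These globins, like Epor, were singled out after their values were seen. In EGFP-positive cells Gata1 lay below the floor and globin RNA above it, but levels of different probe sets are not compared. By ratio, Gata1 was at least 7.26-fold higher on the EGFP-negative array, with no upper limit, and Hbb-bh1 and Hba-x were 14.1-fold and 14.6-fold higher. These values do not set Gata1 apart from those globins. Slc25a37, Bcl2l1 and Tfrc were also singled out after their values were seen. The iron transporter gene Slc25a37 had 65.9 against 776.1. Bcl2l1, a survival gene used by many cell types, and Tfrc, the transferrin receptor gene, were within 2-fold, at 0.34 and -0.51. Summed over the 15 measured genes, the signal was 3916.3 on the EGFP-positive and 23323.9 on the EGFP-negative array, 8 genes were at or below the floor in EGFP-positive cells and 1 in EGFP-negative cells, and none read 0. The part of blood cells in the Gata1 result was not tested.

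Protein partners of Gata1 and other blood regulators were read next. Of 14 genes on the list of Gata1 complex partners and blood regulators, 13 were above the floor, 9 passed 2-fold towards EGFP-negative cells and none towards EGFP-positive cells, with a median of -1.85. Klf1, an erythroid zinc finger factor, had 5.6 in EGFP-positive against 371.3 in EGFP-negative cells, at least 30.2-fold higher. Tal1, the basic helix-loop-helix factor that binds DNA beside Gata1, had 9.8 against 220.2, and the ETS factor Fli1 had 30.2 against 386.6. A few further genes of the list were singled out after their values were seen. Lmo2, the bridging protein of the Gata1 and Tal1 complex, had 3.5 against 135.0, at least 11.0-fold higher on the EGFP-negative array. Ldb1, which joins Lmo2 in that complex and is used in many tissues, had 215.4 against 181.8, and Tcf3, the partner of Tal1, had 486.9 against 392.9. Both lay within 2-fold, as did the blood regulator gene Runx1 (16.6 against 19.7), and Erg had a bound short of 2-fold (0.4 against 23.4).

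Megakaryocytes and mast cells also use Gata1 and Gata2. Of 6 genes of these cells above the floor, 3 passed 2-fold towards EGFP-negative cells and 1 the other way. The platelet chemokine gene Pf4 had 258 on the EGFP-negative against 13.4 on the EGFP-positive array. Ppbp and Treml1, both platelet genes, had 40 and 38.6 in EGFP-negative cells against 4 and 10.8. The 1 gene in the other direction was Kit, the stem cell factor receptor gene, with 266.6 in EGFP-positive against 103.3 in EGFP-negative cells, named after its values were seen. A 60th percentile floor left 1 of these genes, not 3, past 2-fold on that side.

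Gene starts of the Gata1 programme were examined next, in the RefSeq windows of GRCm38.p6, which hold 32851 starts. A window is the 250 bases before a start, and the words searched were AGATAA and AGATAG and TGATAA and TGATAG, on both strands, with overlapping matches each counted. At least 1 word was in 8718 windows, 26.5% of all. It was in 11 of 15 windows of the erythroid list, 73.3%, which cover 12 of its genes. In the list of Gata1 partners it was in 6 of 18 windows, 33.3%, and in the ventral and prosensory list also in 6 of 18. In the general otic epithelium list it was in 1 of 14, 7.14%. In the megakaryocyte and mast cell list it was in 2 of 9, 22.2%. The remaining lists, not given here 1 by 1, ran from 0% (sympathetic neurons, 3 windows) to 50% (leukocyte genes, 4 of 8 windows, among others). Of the members, 5 genes had a window (Gata1, Gata2, Gata3, Gata5 and Zfpm1), and none of their 6 windows held a word. These shares are descriptions of letters near gene starts, and lists of genes from 1 lineage share sequence features and origin. The erythroid list was drawn up as genes that Gata1 acts on, so its share is no independent result about these arrays.

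The window of Gata1 is shown beside those of Hemgn, Alas2 and Klf1, which are, among the genes of the erythroid and partner lists that have a window, the 3 with the largest ratios between the arrays. Capitals mark the GATA words. The Gata1 window is chrX:7967911-7968160 on the minus strand. Alas2 lies at chrX:150547167-150547416 on the plus strand, with TTATCT starting 86 bases before the start. Klf1 lies at chr8:84901732-84901981 on the plus strand, with TTATCA starting 80 bases before it. Hemgn lies at chr4:46404184-46404433 on the minus strand, with TGATAA starting 13 bases before it.
Gata1: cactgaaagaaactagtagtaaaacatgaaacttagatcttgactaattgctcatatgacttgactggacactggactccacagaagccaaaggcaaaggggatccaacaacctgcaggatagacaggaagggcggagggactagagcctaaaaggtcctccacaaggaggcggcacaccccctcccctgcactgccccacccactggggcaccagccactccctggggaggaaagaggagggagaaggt
Alas2: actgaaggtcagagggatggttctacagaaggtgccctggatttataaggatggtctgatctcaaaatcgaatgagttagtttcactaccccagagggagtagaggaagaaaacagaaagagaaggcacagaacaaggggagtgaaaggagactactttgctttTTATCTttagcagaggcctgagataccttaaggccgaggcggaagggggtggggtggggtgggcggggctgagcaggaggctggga
Klf1: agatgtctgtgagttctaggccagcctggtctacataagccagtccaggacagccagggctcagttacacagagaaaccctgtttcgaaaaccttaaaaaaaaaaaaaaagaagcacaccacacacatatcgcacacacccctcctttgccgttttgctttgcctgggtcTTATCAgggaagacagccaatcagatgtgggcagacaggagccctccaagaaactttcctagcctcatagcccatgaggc
Hemgn: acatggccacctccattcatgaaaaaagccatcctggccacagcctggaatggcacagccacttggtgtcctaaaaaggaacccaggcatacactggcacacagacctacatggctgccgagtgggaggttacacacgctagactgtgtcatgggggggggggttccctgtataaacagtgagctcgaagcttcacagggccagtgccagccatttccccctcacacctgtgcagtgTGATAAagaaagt

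Gata2 was above the floor in both populations with both of its probe sets, which differed in the size of the ratio. The probe set with the higher mean signal read 69.3 on the EGFP-positive and 89.2 on the EGFP-negative array, 1.29-fold higher in the latter (log2 ratio -0.36). The other read 26.1 against 72.9, 2.79-fold higher in EGFP-negative cells (-1.48). Both were higher in EGFP-negative cells, but the second was past 2-fold and the first was not. The gap between them, 1.12 on the log2 scale, compares with an SD of 0.45 for a difference of 2 probe sets at this signal. Which transcripts each probe set detects was not analysed here, so both folds are given for Gata2.

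RefSeq lists 2 starts for Gata2, shown because the 2 probe sets disagree. Both lie on the plus strand of chr6, the upstream window at chr6:88193641-88193890 and the downstream at chr6:88198414-88198663. Neither window holds a GATA word, and the signals do not tell which start was used.
Gata2 upstream start: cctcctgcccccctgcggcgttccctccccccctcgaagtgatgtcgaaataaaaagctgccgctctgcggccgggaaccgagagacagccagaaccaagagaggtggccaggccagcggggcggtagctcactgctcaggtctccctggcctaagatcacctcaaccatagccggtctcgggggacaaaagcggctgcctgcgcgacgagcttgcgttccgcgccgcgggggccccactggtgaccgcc
Gata2 downstream start: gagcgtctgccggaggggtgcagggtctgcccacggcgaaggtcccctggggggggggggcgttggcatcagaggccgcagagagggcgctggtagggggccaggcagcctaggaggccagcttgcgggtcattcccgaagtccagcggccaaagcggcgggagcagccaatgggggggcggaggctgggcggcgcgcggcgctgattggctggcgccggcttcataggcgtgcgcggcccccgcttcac

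Other cells that use Gata2 were read through their own genes. Endothelial genes, which include targets of Gata2 in vessels, passed 2-fold towards EGFP-negative cells for 14 of 16 and had a median of -1.79. Cldn5, a claudin of vessel walls, had 2.2 in EGFP-positive against 135.7 in EGFP-negative cells, Emcn 8.7 against 121.8, and Eng, a TGF-beta coreceptor gene, 13.7 against 100.3. Their summed signal was 175.1 against 1008.6, and 11 of 16 were at or below the floor in EGFP-positive cells. A 60th percentile floor left 5 of them, not 14, past 2-fold. Endothelial genes above the reported floor in EGFP-positive cells included Egfl7 (50.3 against 93.1) and Tek (26 against 67.6). Both were named after their values were seen. The Gata2 probe sets were above that floor as well. The part of endothelium in the Gata2 result was not tested.

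Gata2 and Gata3 also act in ventral interneurons and serotonergic neurons of the neural tube. Of 10 measured genes of such neurons, only Lmx1b was above the floor, with 17.2 on the EGFP-positive and 22.1 on the EGFP-negative array. The genes at or below the floor included Tal2, Gad1 and Gad2, chosen here after their values were seen. In sympathetic neurons both factors act as well. Of 4 measured genes of these neurons, Phox2a (4.9 in EGFP-positive against 52.4 in EGFP-negative cells) and Dbh, the noradrenaline enzyme gene (11.8 against 36.7), passed 2-fold towards EGFP-negative cells, and Th, with 4.7 against 19.4, had a bound short of 2-fold. Insm1, named after its values were seen, lay within 2-fold in the other direction, with 385.2 in EGFP-positive against 312.2 in EGFP-negative cells. The other probe sets of Dbh were not all past 2-fold, the least different being at -0.48. The count of 2 was 0 with a 60th percentile floor and 1 with 16 added, with the median over probe sets or without _x_at and _s_at probe sets.

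The heart and endoderm factors were at the limit of measurement. Gata4 had probe sets of 8.9 and 10.6 in EGFP-positive cells and 12.5 and 8.1 in EGFP-negative cells. Only the value of 12.5 was above a floor, by 0.1 units of signal, so no direction is given. Gata5 read 7.7 and 1.2 in EGFP-positive and 5.8 and 4.3 in EGFP-negative cells. Gata6 read 8.6, 11.9 and 2.0 in EGFP-positive and 12.2, 3.7 and 1.6 in EGFP-negative cells on its 3 probe sets. No fold is given for either gene, and RNA below these floors was not detectable rather than absent.

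Partners and targets of these factors were mostly low as well. Of 14 heart muscle genes, 7 were above the floor in at least 1 population, 1 passed 2-fold towards EGFP-negative cells and the median was -0.07. That gene was Mef2c, a MADS box factor also used in vessels and neural crest, with 1.5 in EGFP-positive against 97 in EGFP-negative cells and its 5 probe sets between -2.98 and -1.87. Nppb, a natriuretic peptide gene, had 5.7 against 21.1, and Hand1 had 12.2 against 15.4. Of 10 endoderm genes, 5 were above the floor and 2 passed 2-fold towards EGFP-negative cells, namely Sox17 (4.6 against 39.3), which vessels also express, and Ttr (4.1 against 37.3). Without probe sets of the types that can bind related transcripts, neither was past 2-fold, nor was either with a 60th percentile floor. Foxa2, a forkhead factor, had 9.9 against 20.3.

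The cofactor genes were above the floor in both populations. Zfpm1, the Fog partner of Gata1 in red cells and platelets, read 143.6 on the EGFP-positive and 216.8 on the EGFP-negative array on its first probe set and 22.8 against 30.4 on its second. The ratios were 1.51-fold and 1.33-fold towards EGFP-negative cells, -0.59 and -0.42 on the log2 scale, and the probe sets differed by 0.18. Zfpm1 was thus well measured in EGFP-positive cells, in which Gata1 was below the floor, and lay within 2-fold. Zfpm2, the Fog partner of Gata4 in heart, read 48.6 against 43.1 on 1 probe set and 20.5 against 12.1 on the other, the last below the floor. Its ratios were 0.17 and at least 0.73, and the first turned to -0.07 after centring on hybridisation controls.

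By their brightest probe sets, the corepressors that Fog proteins bring in lay within 2-fold. All 15 genes of the CtBP and NuRD list, which also holds Tacc3, were above the floor and none passed 2-fold. The ratios ran from -0.65 to 0.43 with a median of 0.12, and all ratios fell by 0.25 when centred on hybridisation controls. The largest were those of Mbd2, a methyl-CpG-binding protein gene, with 140.5 on the EGFP-positive and 220.8 on the EGFP-negative array, Ctbp2 (1370.3 against 1017.1) and Mta1 (369.5 against 288.7). Other probe sets reached lower, the lowest of Gatad2b being at -2.05, past 2-fold, and that of Tacc3 at -0.98. Both genes were named after their values were seen. After centring on general otic epithelium genes 13 of the 15 passed 2-fold towards EGFP-negative cells. Among 4 other genes with a GATA-type zinc finger, Trps1, a repressor at GATA words, had 149.4 against 159.7, and Rere had 298.6 against 245.3. Zglp1, known from germ cells, had 3.8 against 26.6, at least 2.16-fold higher on the EGFP-negative array, and was no longer past 2-fold after quantile normalization or with a 60th percentile floor.

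**Figure D2:**
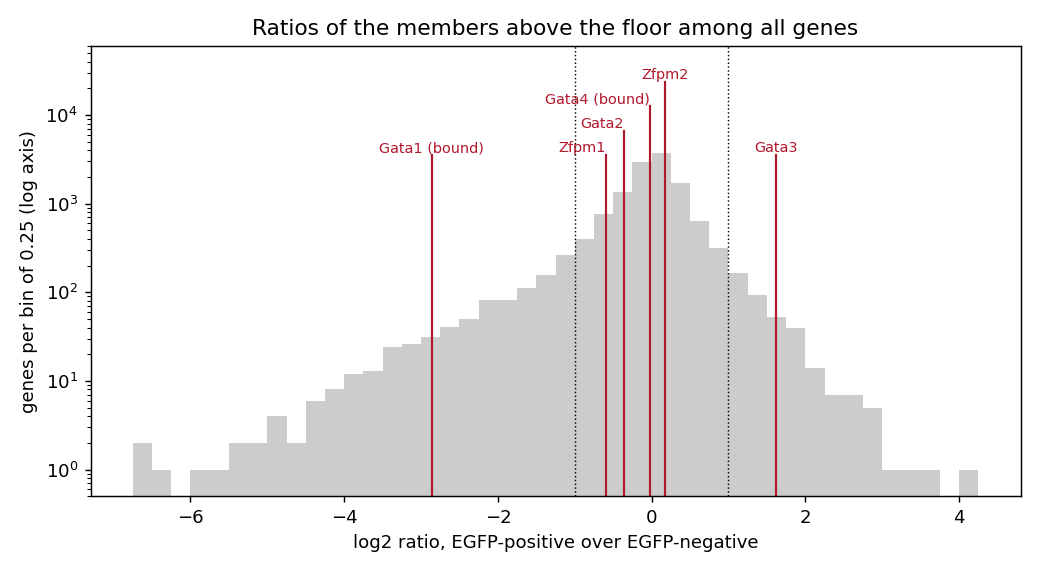
Distribution of the log2 ratio, EGFP-positive over EGFP-negative, of 13098 genes (log axis of genes per bin of 0.25) with the 6 members above the floor as lines and the 2-fold limits dotted. Gata3 lies at 1.62 and Gata1 at its bound of -2.86, with Gata2, Zfpm1, Zfpm2 and the bound of Gata4 between the limits.

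Markers of further cell types that could be in the sort were mostly higher in the EGFP-negative population. Gata1 also passed 2-fold towards that population, as did Gata2 by the less bright of its probe sets only. All 12 periotic mesenchyme genes passed 2-fold towards it, with a median of -3.66 and summed signals of 594.9 on the EGFP-positive and 6758.7 on the EGFP-negative array, the largest ratios being those of Prrx1, Twist1 and Col3a1. All 10 leukocyte genes passed too, with a median of -2.54 and sums of 83.5 and 1403.4, led by Csf1r, C1qb and Laptm5, although the least different probe sets of Csf1r and Laptm5 were at -0.59 and -0.54. Of 12 hindbrain genes above the floor 10 passed, with a median of -2.21 and sums of 86.7 and 2799.7, led by Zic1, Fabp7 and Hoxb3, and a 60th percentile floor left 4 of them. Of 4 measured crest and glial genes, Ednrb, Ets1 and Foxd3 passed towards EGFP-negative cells and Erbb3, named after its values were seen, towards EGFP-positive cells. In EGFP-positive cells 3 of 12 mesenchyme, 7 of 10 leukocyte and 11 of 14 hindbrain genes were at or below the floor. No gene of any list read 0 on either array, so the lack of 0 values tells nothing about these markers. The part of these cell types in the Gata results was not tested.

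Gata3 is also used in surface ectoderm, so that list was read beside it. Of 9 ectoderm genes above the floor, 6 did not pass 2-fold either way, and the list median was -0.02. Krt19 and Grhl2 passed 2-fold towards EGFP-positive cells, and Tfap2a passed it the other way. Of the 4 probe sets of Grhl2, the lowest was at -0.68, and those of Tfap2a ran from -2.04 to -0.43. Centring on hybridisation controls left 1 of the 2 genes past 2-fold towards EGFP-positive cells, and with 16 added none passed the other way. The epidermal genes Trp63, Krt5 and Krt14, named after their values were seen, read 10, 15.9 and 7.1 on the EGFP-positive array and 17.4, 16.1 and 5.8 on the other, close to the floor.

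**Figure D3:**
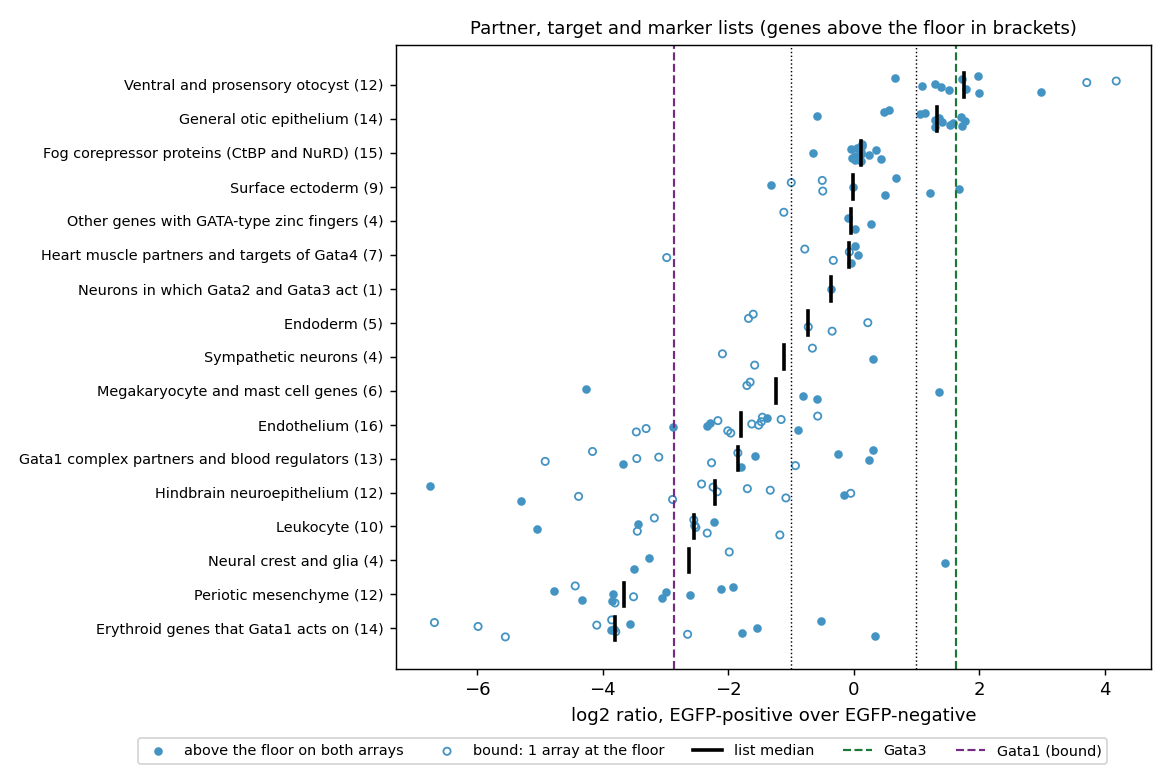
Log2 ratios, EGFP-positive over EGFP-negative, of the genes above the floor in each list of partners, targets and cell type markers, with open points for bounds, black bars for list medians and dashed lines for Gata3 (1.62) and Gata1 (-2.86). In the values as reported, the otic lists lie right, with medians of 1.76 and 1.33, the corepressors cluster at 0.12, and the erythroid list lies farthest left at -3.80.

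The member ratios were recomputed under 9 other settings. Gata3 stayed at 1.38 or above in 8 of them and fell to 0.29 when ratios were centred on otic epithelium. Gata1 was past 2-fold towards EGFP-negative cells in all 9. Gata2 and Zfpm1 were below 0 in all 9, and past 2-fold only after the epithelial centring, at -1.69 and -1.92. Centring on hybridisation controls moved the median of all genes by -0.25, and the epithelial centring by -1.33, so values under these settings are read against those shifts.

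**Figure D4:**
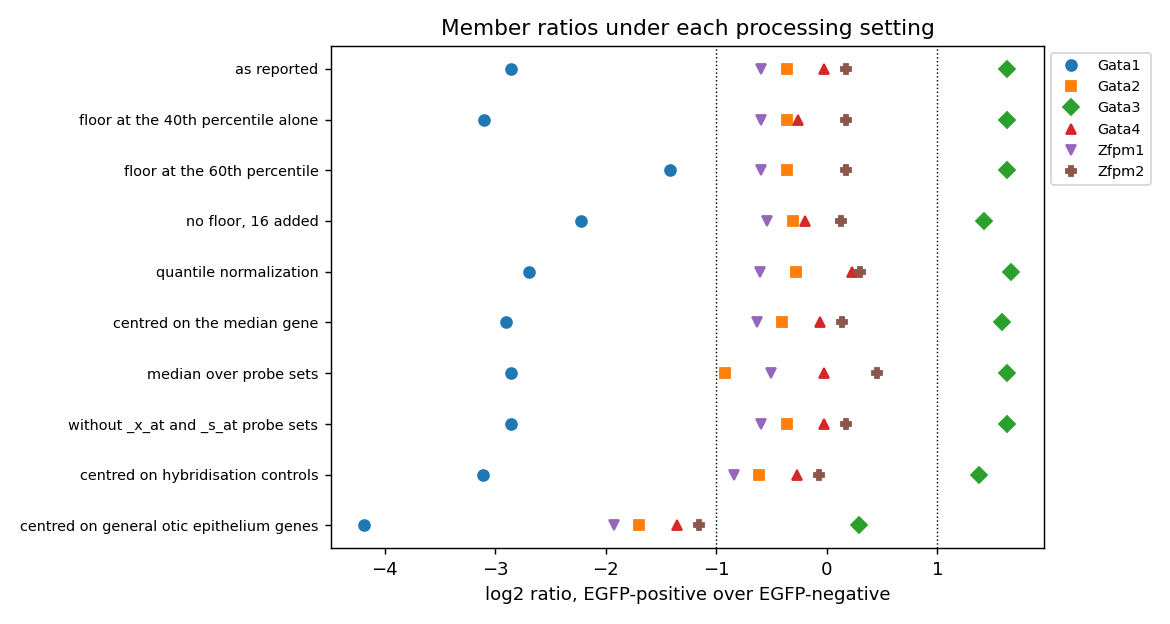
Log2 ratio, EGFP-positive over EGFP-negative, of the 6 members above the floor (1 symbol per gene) as reported and under each of 9 other settings, with 2-fold limits dotted. Gata3 stays right of the limit except in the bottom setting (0.29), and Gata1 stays left of it throughout, from -4.19 to -1.42.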

How the data were processed

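RNA of EGFP-positive and EGFP-negative otocyst cells was measured on 1 array each. The deposited values are intensities, MAS5 signals per probe set (MAS5 5.0 per the submitters' processing notes). Detection calls were not used here. Of 45101 probe sets, 34958 named 1 gene in the platform table, 932 named several and were not used, and 9211 were unnamed here. Symbols were updated by gene identifier through RefSeq of GRCm38.p6. The brightest probe set by mean signal stands for a gene, and every probe set is given for members. Signals were raised to the floor before log2, genes at the floor on both arrays were left out, and 2-fold was the limit for a count. Without replicates no test was made, and the number of arrays limits the precision. The procedure was tested on simulated data with changes placed only in brighter genes, so that test does not cover calls at low signal. The members and 17 lists with 198 entries were chosen with earlier results of these data known, and 12 entries were not analysed here. The text names all members, the 3 genes of each list with the largest ratio, the 4 closest to Gata3, and genes marked as chosen after their values were seen. Python 3.11.15, numpy 2.4.6 and pandas 2.3.3 were used. Promoter windows are from RefSeq, GRCm38.p6.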

Additional observations from a re-analysis of the deposited data

How the results depend on the processing

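Each member ratio and count was recomputed with the floor at the 40th percentile alone, at the 60th percentile, with 16 added in place of a floor, after quantile normalization, centred on the median gene, with the median over probe sets, without _x_at and _s_at probe sets, and, chosen after seeing the data, centred on 12 hybridisation control probe sets or on general otic epithelium genes. A value is said to move when it shifted by more than the between-probe-set SD, or a count by over 1.5 times. Gata1 moved to -1.42 with the 60th percentile floor and -2.22 with 16 added, and Gata2 to -0.92 with the median over probe sets. Centred on otic epithelium, Gata1 was at -4.19, Gata2 -1.69, Gata3 0.29, Gata4 -1.35, Zfpm1 -1.92 and Zfpm2 -1.16, with 0 members past 2-fold towards EGFP-positive and 5 towards EGFP-negative cells. Under that centring 3 list genes and 20 of all genes passed towards EGFP-positive cells, and 124 and 10790 towards EGFP-negative cells, against 26, 388, 80 and 917 as reported. With the 60th percentile floor 237 of all genes passed towards EGFP-positive cells, and 478 of all genes and 52 list genes towards EGFP-negative cells. With 16 added 238 passed towards EGFP-positive cells, and centred on hybridisation controls 225. The causes were not tested, except that a higher floor leaves fewer genes above it by construction. Gata4 gave no value with the 60th percentile floor. No paired analysis was possible because each population has 1 array, so no replicate could be left out either. Depth has no counterpart here, and signals at or below the floor limit Gata4, Gata5, Gata6 and the size of the Gata1 bound.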
